A study of Mus musculus with 12 samples.

Results

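*Ascl2*, *Plet1* and 8 further trophoblast genes (*Cdx2*, *Eomes*, *Elf5*, *Tfap2c*, *Krt8*, *Krt18*, *Hand1* and *Gata3*) were followed in mouse embryonic stem (ES) cells after knockdown of *Kdm6a*, which encodes a demethylase of histone H3 lysine 27. They are 10 of the 19938 genes with a value, found by symbol in the platform annotation, each with 1 probe set. The set was chosen on the PGK12.1 arrays themselves, since trophoblast genes as a list were lower there after *Kdm6a* RNAi. The PGK12.1 changes of these genes are therefore given as a description with no test, whereas their changes in WD44 and the contrast of double with single RNAi were tested.

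Affymetrix Mouse Gene 1.0 ST arrays, 12 in all, were hybridised with total RNA of undifferentiated ES cells to follow the response to *Kdm6a* siRNA. Female PGK12.1 cells came from blastocysts of a 129 mother and a (129 X PGK)F1 father, and male WD44 cells from BL6 blastocysts, so sex and strain cannot be told apart. PGK12.1 had 4 experiments and WD44 had 2, and each experiment held 1 array of cells given a negative control siRNA and 1 array of cells given pooled *Kdm6a* siRNAs. PGK12.1 experiments 1 and 2 were double RNAi, with 100 pmol of siRNA for 48 h followed by 400 pmol for 24 h, and all others were single RNAi with 100 pmol for 48 h. Both lines grew with LIF on embryonic fibroblast feeders, which were depleted on gelatin before transfection.

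Trophoblast is the first lineage set aside from the embryo, and it forms the outer wall of the blastocyst and later the placenta. ES cells normally keep the genes of this lineage low, although a few of them are detectable in ES cell cultures. In the blastocyst *Cdx2*, *Eomes*, *Elf5*, *Tfap2c* and *Gata3* encode transcription factors of trophectoderm and trophoblast stem cells, *Ascl2* and *Hand1* act in placental derivatives, *Plet1* encodes a surface protein, and *Krt8* and *Krt18* encode the partner keratins of simple epithelia.

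Promoter sequences are given for *Ascl2* and *Plet1*, the members with the largest mean decreases in PGK12.1, and for the keratins *Krt8* and *Krt18*. The mean changes of both keratins differed in sign between the lines, as did those of *Cdx2*, *Elf5* and *Hand1*. Each run is the 250 bases before the gene start in RefSeq (GRCm38.p6), 5′ to 3′ on the strand of the gene, and the capitals mark CG dinucleotides. The windows lie at chr7:142969265-142969514 on the minus strand for *Ascl2*, chr9:50494275-50494524 on the plus strand for *Plet1*, chr15:102004343-102004592 on the minus strand for *Krt8* and chr15:102027966-102028215 on the plus strand for *Krt18*.
Ascl2: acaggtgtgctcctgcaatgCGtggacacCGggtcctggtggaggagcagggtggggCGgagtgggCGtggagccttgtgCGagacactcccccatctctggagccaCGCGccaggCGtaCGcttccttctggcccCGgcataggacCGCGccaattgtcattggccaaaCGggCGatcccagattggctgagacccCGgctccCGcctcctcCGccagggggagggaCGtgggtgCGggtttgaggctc
Plet1: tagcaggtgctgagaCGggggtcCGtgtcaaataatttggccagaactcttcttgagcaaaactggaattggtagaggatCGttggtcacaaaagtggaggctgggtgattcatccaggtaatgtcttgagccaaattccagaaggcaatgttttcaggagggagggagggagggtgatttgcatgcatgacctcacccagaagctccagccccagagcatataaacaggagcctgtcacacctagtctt
Krt8: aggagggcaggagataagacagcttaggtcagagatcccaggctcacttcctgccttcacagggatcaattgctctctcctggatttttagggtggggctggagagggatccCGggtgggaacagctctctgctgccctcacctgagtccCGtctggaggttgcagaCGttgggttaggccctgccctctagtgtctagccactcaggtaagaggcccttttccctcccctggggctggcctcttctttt
Krt18: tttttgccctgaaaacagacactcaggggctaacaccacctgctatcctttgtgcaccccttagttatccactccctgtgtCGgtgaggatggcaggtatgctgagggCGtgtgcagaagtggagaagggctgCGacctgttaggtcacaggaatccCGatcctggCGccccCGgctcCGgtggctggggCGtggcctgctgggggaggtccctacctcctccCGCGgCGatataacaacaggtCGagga
The *Ascl2* window held 19 CG dinucleotides, and 82.1% of the 32851 RefSeq promoter windows of this length held at most that number. The *Krt18* window held 12, whereas the *Plet1* and *Krt8* windows held 3 each, below the median of 6 over all windows. Promoter windows of *Cdx2*, *Eomes* and *Gata3* held 13, 8 and 19, and those of *Elf5* held 2 and 8. The members with a window thus included promoters rich and poor in CG. *Tfap2c* and *Hand1* had no promoter window, so nothing is said of their letters. On both strands, the E-box CANNTG was found in all 4 windows shown and in those of *Cdx2* and *Elf5*, as in 66.2% of all windows. The T-box letters AGGTGT, present in 11.8% of windows, were found in *Ascl2* and *Plet1* and in a window of *Elf5*. They share letters with CANNTG in CAGGTGT, which stands near the start of the *Ascl2* window. The AP-2 letters GCCNNNGGC, present in 13.7%, were found in *Krt18* of the windows shown and also in those of *Cdx2* and *Gata3*. The GATA letters AGATAA, present in 9.99%, were found in *Krt8*. These matches describe letters and not bound sites.

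The knockdown was seen on every pair of arrays. The log2 change of *Kdm6a* was -1.27, -1.50, -1.42 and -0.96 in PGK12.1 experiments 1 to 4 and -0.94 and -0.92 in WD44, on average 59.0% and 47.5% lower. In limma the decrease passed in PGK12.1 (SE 0.0772, adjusted p = 0.000293) and missed the threshold in WD44 (SE 0.109, adjusted p = 0.13). No gene of the 15309 tested passed in WD44. Array medians lay between 6.15 and 6.48 log2 units in PGK12.1 experiments 1 to 3 and between 8.03 and 8.21 in PGK12.1 experiment 4 and WD44. Levels were therefore read within an array, as the percentile rank among genes or as a multiple of the array mean, and changes were taken between the control and RNAi arrays of 1 experiment. In RNA of whole cultures, fewer cells of a type and less RNA per cell cannot be told apart. Nothing in the labels says that the WD44 experiments used separate cultures, so p-values measure only the spread between these arrays.

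In the control arrays, most of the genes ranked higher in WD44 than in PGK12.1. Of the 9 members at or above the minimum level for testing, 7 (*Ascl2*, *Plet1*, *Cdx2*, *Eomes*, *Krt8*, *Krt18* and *Hand1*) had both WD44 controls above all 4 PGK12.1 controls, where 24.6% of all genes tested did. *Tfap2c* ranked lower in WD44 without overlap, as did 26.5% of genes, and *Gata3* overlapped in rank. As a multiple of the array mean, *Tfap2c* overlapped (1.2 to 1.3 in PGK12.1, 1.2 to 1.22 in WD44). By that measure *Gata3* was higher in WD44 without overlap (0.469 to 0.478 against 0.349 to 0.372). These ranks and levels are given as a description and were not tested. In an exact test, 4 arrays against 2 cannot reach 0.05.

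The keratin pair stood highest in WD44. The *Krt8* control ranked at percentiles 68.7, 67.8, 90.5 and 78.3 in PGK12.1 experiments 1 to 4, against 98.7 and 98.6 in WD44, with levels of 0.551 to 2.09 times the array mean in PGK12.1 but 6.86 and 6.61 times in WD44. *Krt18*, whose product pairs with that of *Krt8* in keratin filaments, ranked at 53.8, 56.0, 80.4 and 67.2 in PGK12.1, against 96.3 and 95.8 in WD44. Both keratins were lowest in the double RNAi controls and highest in experiment 3 among the PGK12.1 controls.

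*Plet1*, known as a surface marker of placental and epithelial progenitors, ranked at percentiles 58.8, 59.7, 56.7 and 75.2 in the PGK12.1 controls and at 91.2 and 90.6 in WD44. Its level was between 0.29 and 0.374 times the array mean in PGK12.1 experiments 1 to 3, 1.03 times in experiment 4, and 2.64 and 2.54 times in WD44. Experiment 4 thus stood apart from the other PGK12.1 controls, on the side of WD44. Its array median of 8.21 was also near those of the WD44 controls (8.07 and 8.08). Array scale and this shift cannot be told apart. *Ascl2*, a basic helix-loop-helix factor needed for the spongiotrophoblast of the placenta, ranked at 48.6, 49.1, 55.6 and 53.6 in PGK12.1, against 64.5 and 64.6 in WD44.

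Except for *Tfap2c*, which ranked high in both lines, the factors of trophectoderm and trophoblast stem cells ranked at percentile 69.2 or lower in every control array. *Eomes*, a T-box factor of trophoblast stem cells, ranked between 46.2 and 56.0 in PGK12.1 controls and at 69.2 and 67.8 in WD44. *Cdx2*, the caudal-type homeobox factor that sets up trophectoderm, ranked between 25.7 and 40.7 in PGK12.1, against 50.2 and 50.1 in WD44. *Elf5*, an ETS factor that holds trophoblast stem cells in the lineage, had a mean level of 0.0981 times the array mean, under the minimum of 0.1, and was not tested. Its control level ran from 0.0676 to 0.132 times the array mean over both lines. *Tfap2c*, an AP-2 factor of trophectoderm that is also active in ES and germ cells, was the exception to the rank order of the lines. It ranked at 79.8 to 84.2 in PGK12.1 but at 78.4 and 78.2 in WD44. The gap between the lines for *Tfap2c* was smaller than the spread among the PGK12.1 controls. *Hand1*, a helix-loop-helix factor of trophoblast giant cells, ranked between 48.0 and 53.6 in PGK12.1, against 58.5 and 58.6 in WD44, and *Gata3*, a GATA factor of trophectoderm, between 52.5 and 61.6 and at 58.9 and 59.2.

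**Figure D1:**
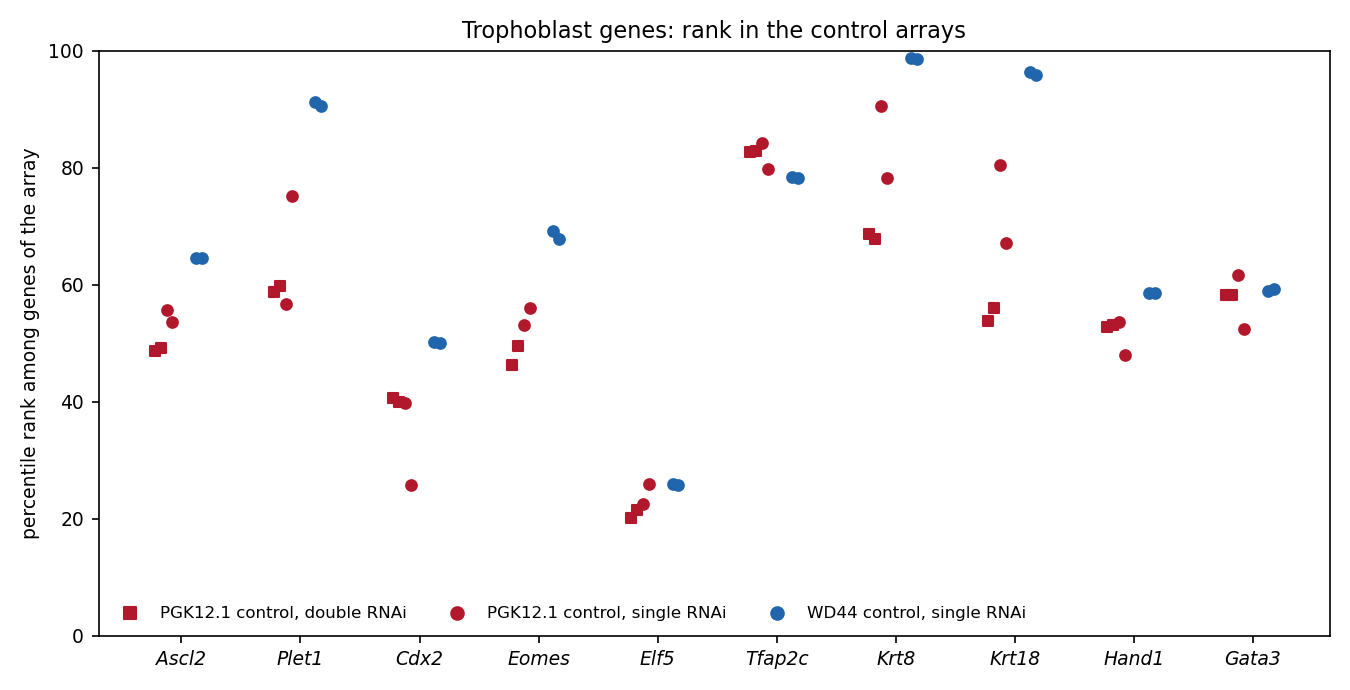
Percentile rank of each gene among all genes of the same control array (vertical axis, 0 to 100), with 1 point per control array: squares for PGK12.1 double RNAi, red circles for PGK12.1 single RNAi and blue circles for WD44. Both WD44 points lie above all PGK12.1 points for *Ascl2*, *Plet1*, *Cdx2*, *Eomes*, *Krt8*, *Krt18* and *Hand1*.

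Within PGK12.1, both single RNAi controls ranked above both double RNAi controls for *Ascl2*, *Eomes*, *Krt8* and *Krt18*, 4 of 9 members where 24.6% of genes did. RNAi rounds, dose, time in culture and the set of arrays cannot be told apart in this contrast.

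Marker genes of other cells differed between the lines in the same controls. The summed level of 10 embryonic fibroblast genes was 2.07 to 2.64 times the array mean in PGK12.1 controls and 4.66 to 4.73 in WD44 controls, with *Postn* and *Lum* under the minimum level in the mean over all arrays. The sum of 10 primitive endoderm genes was 4.78 to 8.45 in the PGK12.1 controls against 10.2 to 10.5 in WD44, and that of 8 ES cell genes 59.2 to 88.1 against 45.4 to 47.5. *Sparc* was the largest part of the endoderm sum, with a mean level of 4.71 over all arrays. The other endoderm genes tested lay between 0.119 and 0.705 in that mean. *Acta2*, at 1.18, was the largest of the fibroblast genes. All 8 ES cell genes were above the minimum level. The part of these differences in the ranks of the trophoblast genes was not tested. For PGK12.1 experiments 1 to 3 against WD44, line and array scale cannot be told apart in these sums.

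After *Kdm6a* RNAi in PGK12.1, 4 of the 9 members were lower in all 4 experiments, namely *Ascl2*, *Plet1*, *Tfap2c* and *Krt18*, beside 10.6% of all genes tested. The median change of the 9 members was -0.0825 on the log2 scale and that of all genes tested 0.0075. Since these values chose the genes, nothing is read from the count. In WD44, *Ascl2*, *Plet1*, *Eomes* and *Gata3* were lower in both experiments, 4 of 9 beside 33.1% of genes, and *Krt8*, *Krt18* and *Hand1* were higher in both, 3 of 9 beside 31.3%. By limma 0 of 9 members passed in WD44, as did 0% of genes. At an unadjusted p under 0.05, *Plet1* and *Eomes* were lower (7.23% of genes) and *Krt18* was higher (8.84% of genes), and the methods' paired t-test after adjustment also called 0. The median change in WD44 was -0.03 for members and -0.005 for all genes tested.

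**Figure D2:**
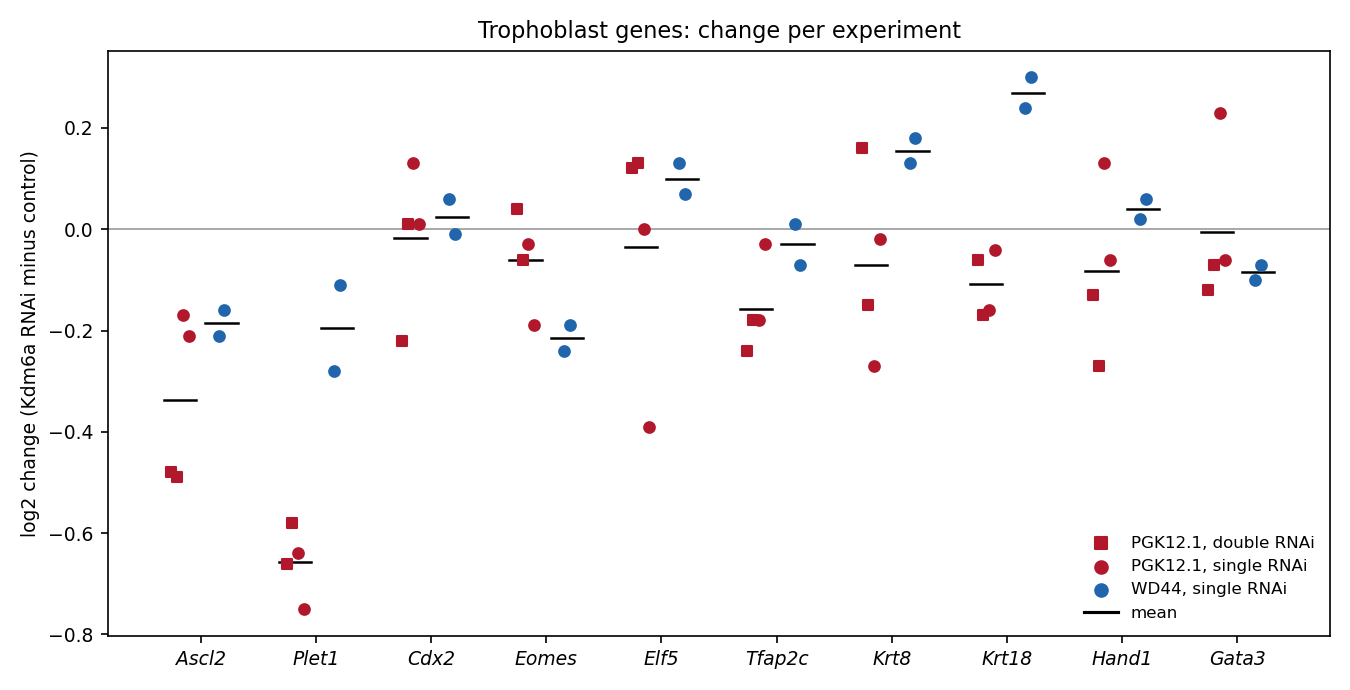
Change in each experiment (vertical axis, log2 *Kdm6a* RNAi minus control), with squares for PGK12.1 double RNAi, red circles for PGK12.1 single RNAi, blue circles for WD44 and black lines for the mean of each line. *Plet1* lies between -0.75 and -0.58 in PGK12.1, against -0.28 and -0.11 in WD44, and *Krt18* lies under 0 in PGK12.1 and above 0 in WD44.

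*Plet1* had the largest mean decrease of the members in PGK12.1. Its log2 value went from 7.07 to 6.41, from 7.12 to 6.54, from 7.36 to 6.72 and from 10.29 to 9.54 in experiments 1 to 4. The changes of -0.66, -0.58, -0.64 and -0.75 averaged -0.66 ± 0.07 (SD, n = 4), or 36.6% less. In experiment 4 the control level was above that of the other PGK12.1 controls, and the change was the largest of the 4. In WD44 the value went from 11.59 to 11.31 and from 11.52 to 11.41. Both WD44 changes, -0.28 and -0.11, were smaller than any in PGK12.1. Their mean of -0.20 (SE 0.068, 95% interval -0.35 to -0.04, 12.6% less) did not pass in limma (adjusted p = 0.227).

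In PGK12.1, the decreases of *Ascl2* were larger in experiments 1 and 2 than in 3 and 4, and the difference did not pass its test. Its log2 value went from 6.49 to 6.01 and from 6.45 to 5.96 in experiments 1 and 2 (double RNAi), and from 7.28 to 7.11 and from 8.83 to 8.62 in experiments 3 and 4 (single RNAi). The double RNAi changes were -0.48 and -0.49 and the single RNAi changes -0.17 and -0.21, so that these pairs did not overlap. The mean over the 4 was -0.34 ± 0.17 (SD, n = 4), 20.9% less. In WD44 the value went from 9.51 to 9.3 and from 9.49 to 9.33. These single RNAi changes of -0.21 and -0.16 had a mean of -0.19 (SE 0.0878, interval -0.38 to 0.01, limma adjusted p = 0.335). The WD44 changes and the PGK12.1 single RNAi changes covered nearly the same range.

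**Figure D3:**
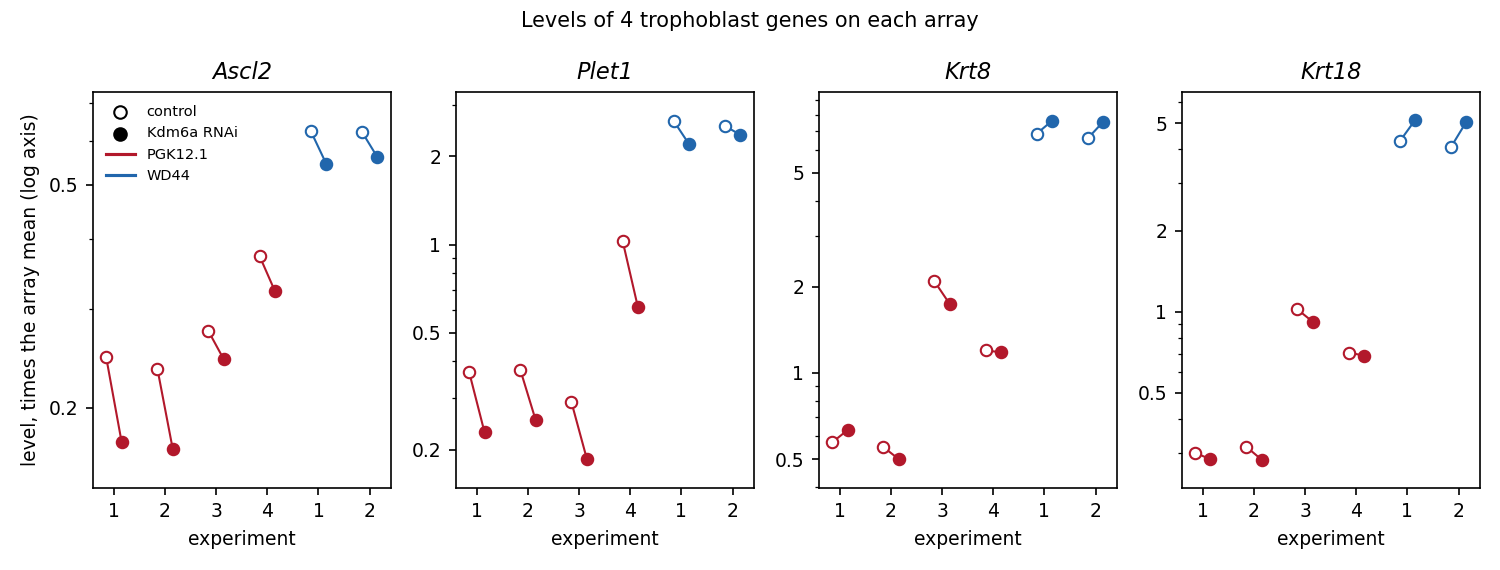
Level of *Ascl2*, *Plet1*, *Krt8* and *Krt18* on each array (vertical log axis, times the array mean), with open circles for control, filled circles for *Kdm6a* RNAi and a line joining the arrays of 1 experiment (PGK12.1 red, WD44 blue). *Ascl2* and *Plet1* are lower after RNAi in every experiment, and *Krt8* and *Krt18* are highest in WD44, where both are higher after RNAi.

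Double minus single RNAi was tested for the 9 members in a fit with separate effects. The difference for *Ascl2* was -0.30 (SE 0.0802, interval -0.48 to -0.11) and did not pass after adjustment over all genes (limma adjusted p = 0.504). *Hand1* came next, at -0.24 (SE 0.0978, interval -0.46 to -0.01, limma adjusted p = 0.537), with changes of -0.13 and -0.27 after double and 0.13 and -0.06 after single RNAi. *Plet1* differed by 0.08 (interval -0.14 to 0.29). In this contrast 0 of 9 members and 0% of genes passed in limma, and *Ascl2* and *Hand1* had an unadjusted p under 0.05, as did 8.88% of genes. The changes of *Ascl2*, *Hand1* and *Gata3* did not overlap between double and single RNAi, 3 of 9 members beside 35.9% of genes. The median difference was -0.105 for members and 0.01 for all genes tested. The knockdown of *Kdm6a* itself differed by -0.20 between double and single RNAi (interval -0.53 to 0.14), a difference that did not pass either.

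*Krt18* lay on opposite sides of 0 in the lines. Its changes were -0.06, -0.17, -0.16 and -0.04 in PGK12.1, a mean of -0.11 ± 0.07 (SD, n = 4) or 7.18% less. In WD44 its log2 value went from 12.29 to 12.53 and from 12.2 to 12.5. The mean WD44 change of 0.27 (SE 0.0624, interval 0.13 to 0.41, 20.6% more) was the largest of the members in size there and did not pass in limma (adjusted p = 0.164). Over the alternatives its adjusted p ran from 0.0661 to 1. *Krt8* had PGK12.1 changes of 0.16, -0.15, -0.27 and -0.02, on both sides of 0. In WD44 *Krt8* was higher by 0.13 and 0.18, a mean of 0.16 (SE 0.0918, interval -0.05 to 0.36, limma adjusted p = 0.441). On these arrays, *Krt8* and *Krt18* had the same sign in PGK12.1 experiments 2 to 4 and in both WD44 experiments. *Eif4b*, the nearest gene with a value beyond *Krt18*, had a mean change of 0.09 in PGK12.1 and -0.09 in WD44, and *Krt78*, beyond *Krt8*, 0.07 and 0.11.

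Among the stem cell factors, *Eomes* was near 0 in PGK12.1 and lower in WD44. Its PGK12.1 changes were 0.04, -0.06, -0.03 and -0.19, and its WD44 changes were -0.24 and -0.19. The WD44 mean of -0.22 (SE 0.0678, interval -0.37 to -0.06, 13.8% less) did not pass (limma adjusted p = 0.206). *Tfap2c* was lower in PGK12.1, by 0.24, 0.18, 0.18 and 0.03, a mean of -0.16 ± 0.09 (SD, n = 4) or 10.3% less, while WD44 gave 0.01 and -0.07. For *Tfap2c* the interval in WD44 was -0.18 to 0.12. *Cdx2* had changes of -0.22, 0.01, 0.13 and 0.01 in PGK12.1 and 0.06 and -0.01 in WD44 (interval -0.16 to 0.21). *Elf5*, under the minimum level, ran from -0.39 to 0.13 in PGK12.1 with no common direction and gave 0.13 and 0.07 in WD44. *Gata3* gave -0.12, -0.07, 0.23 and -0.06 in PGK12.1 and, in WD44, -0.1 and -0.07 (interval -0.27 to 0.1). *Hand1* gave 0.02 and 0.06 in WD44 (interval -0.15 to 0.23). Thus the changes of *Cdx2*, *Hand1* and *Gata3* lay on both sides of 0 in PGK12.1, within the spread between experiments.

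Further trophoblast genes were tested in both lines: 43 genes of stem cells, trophectoderm and differentiated placental cells, of which 39 had a value and 32 reached the minimum level. Markers of the mature placenta, *Tpbpa*, *Tpbpb*, *Prl4a1*, *Prl8a8*, *Prl7a1*, *Ctsq* and *Ctsj*, were under it. The lists were chosen with earlier results of these data known, so nothing is read from their PGK12.1 counts. In PGK12.1 limma called 1 lower and 2 higher, beside 2.10% and 3.71% of all genes. The balance turned under other settings, to 3 lower and 1 higher with quantile normalization, 4 and 0 without PGK12.1 experiment 4, and 7 and 5 with trend and robust moderation. *Phlda2*, an imprinted gene that limits placental growth, fell by 0.48, 0.4, 0.66 and 0.51 in experiments 1 to 4 (mean -0.51, SE 0.0518, adjusted p = 0.00114), while WD44 gave -0.1 (adjusted p = 0.55). *Id2*, an inhibitor of helix-loop-helix factors, rose by 0.36 (SE 0.0741, adjusted p = 0.0242), and *Sox21*, a SOX factor, by 0.2 (SE 0.0477, adjusted p = 0.0381). The calls of *Id2* and *Sox21* ended when single experiments were left out: *Id2* without PGK12.1 experiment 1, 2 or 4 or either WD44 experiment (adjusted p 0.0533 to 0.0887), and *Sox21* without any 1 of the 6 (0.0584 to 0.111). At an unadjusted limma p under 0.05, 12 of the 32 were lower and 5 higher in PGK12.1, where the share of all genes was not computed. In WD44, 0 of the 32 passed in limma, as did 0% of genes. At an unadjusted p under 0.05, 1 was lower and 4 were higher in WD44, beside 7.23% and 8.84% of all genes. *Hand2* (0.30, adjusted p = 0.2), *Pparg*, a nuclear receptor needed in the placenta (0.22, adjusted p = 0.198), and the protease gene *Furin* (0.21, adjusted p = 0.23) had the smallest p of their lists there. The median change of the 32 was -0.0813 in PGK12.1 and -0.025 in WD44.

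*Ascl2* and *Phlda2* lie in 1 imprinted domain, in which many genes are expressed from the maternal copy. *Cdkn1c*, a cell cycle inhibitor of the same domain, rose in PGK12.1 by 0.34, 0.51, 0.29 and 0.22 (mean 0.34, SE 0.0523, limma adjusted p = 0.00697) and gave -0.15 in each WD44 experiment, a mean that did not pass (adjusted p = 0.353). The other 9 tested genes of the region had mean PGK12.1 changes between -0.12 (*Igf2*) and 0.1, and none passed. *Th* and *Tspan32*, the neighbours of *Ascl2*, had means of -0.05 and 0.1. Genes of the domain thus differed in direction in PGK12.1. At *Plet1*, the neighbour *Pts* had a mean of 0.13 in PGK12.1 (limma adjusted p = 0.504), and *Gm11149*, on the other side, was under the minimum level.

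**Figure D4:**
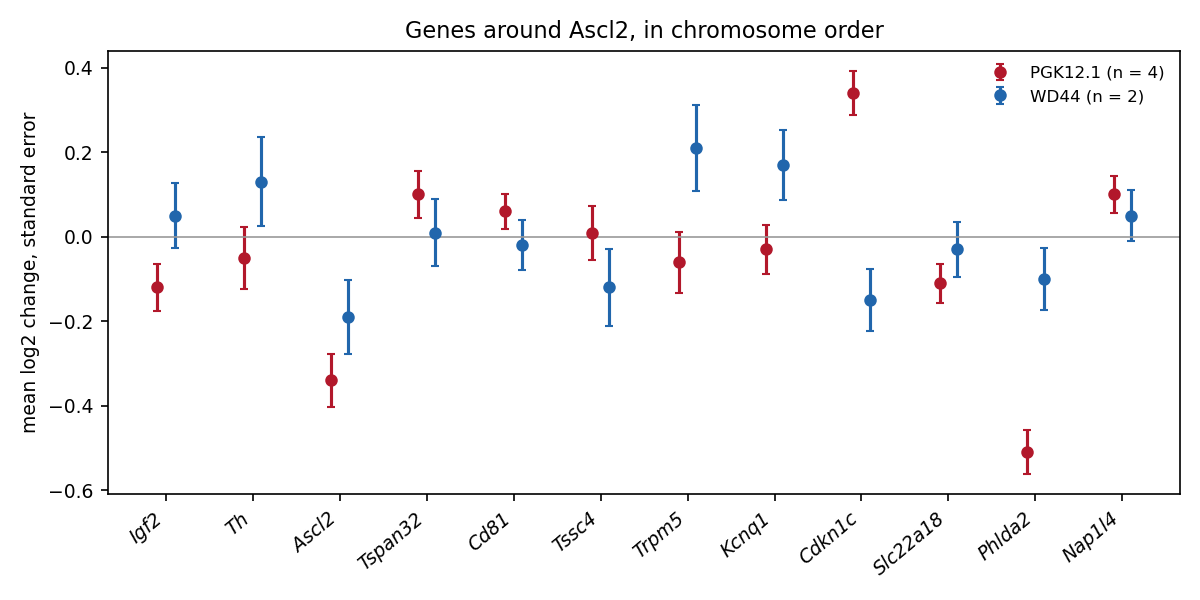
Mean log2 change of *Ascl2* and the genes around it in chromosome order (horizontal axis), with the limma standard error as bars. Red points are PGK12.1 (n = 4 experiments) and blue points WD44 (n = 2). *Phlda2* stands at -0.51 and *Cdkn1c* at 0.34 in PGK12.1, with the direct neighbours of *Ascl2* near 0, and *Ascl2* was chosen on the PGK12.1 values.

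Genes of simple epithelia, the tissue type of trophectoderm in which *Krt8* and *Krt18* are found, were tested as a separate group of 9. The group was chosen with earlier results of these data known, so nothing is read from its PGK12.1 counts. In PGK12.1, limma called 4 of 9 lower and 0 higher, beside 2.10% and 3.71% of all genes. The 4 were the claudins *Cldn6* (mean -0.59, SE 0.0423, limma adjusted p = 0.000444), *Cldn4* (-0.33, adjusted p = 0.0137) and *Cldn7* (-0.23, adjusted p = 0.0397) and the desmosome gene *Dsp* (-0.33, adjusted p = 0.0247). The other genes tested had PGK12.1 means on both sides of 0, from -0.11 (*Krt19*) to 0.09 (*Epcam*). The calls of *Cldn7* and *Dsp* ended without PGK12.1 experiment 1, 2 or 4 or either WD44 experiment, and that of *Cldn7* also without experiment 3 (adjusted p up to 0.129). In WD44 none of the 9 passed, and *Cldn6* gave 0.09 and 0.08. The summed level of the group, with *Krt23* under the minimum included, was 9.58 to 17.4 times the array mean in PGK12.1 controls and 8.84 to 14.5 after RNAi, and in WD44 28.4 to 29.3 and 30.4 to 31.7.

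Markers of other cells were examined in the same fit, with lists that were also chosen with earlier results of these data known. Of 8 fibroblast, 11 mesoderm and 8 ES cell genes tested, 0 passed in either line. In PGK12.1 the fibroblast gene *Twist1* came close (0.23, limma adjusted p = 0.0506). The smallest p there were those of *Hand2* for mesoderm (-0.13, adjusted p = 0.268) and *Sox2* for ES cells (0.08, adjusted p = 0.327). The smallest p of each list in WD44 were, for mesoderm, that of *Kdr*, a receptor gene (0.34, limma adjusted p = 0.177), for fibroblasts, that of *Col3a1*, a collagen gene (0.24, adjusted p = 0.217), and, for ES cells, that of *Zfp42*, a marker of naive ES cells (-0.23, adjusted p = 0.177). Of 9 primitive endoderm genes, *Sparc*, a matrix glycoprotein gene, fell in PGK12.1 by 0.46 (SE 0.0463, limma adjusted p = 0.00114), with WD44 values of -0.04 and 0.14. The summed fibroblast level was 2.06 to 2.82 in PGK12.1 after RNAi, overlapping the controls, and 4.91 to 5.43 in WD44 after RNAi, above both controls. Its part in the WD44 values of the trophoblast genes was not tested. *Ascl2* belongs to the Wnt target genes in intestine. Of 9 Wnt target genes tested, limma called 2 higher and 0 lower in PGK12.1, beside 3.71% and 2.10% of all genes. Those called were *Notum* (0.45, limma adjusted p = 0.00375) and *Lef1* (0.41, adjusted p = 0.028). The call of *Lef1* ended when PGK12.1 experiment 2, 3 or 4 or either WD44 experiment was left out (adjusted p 0.0606 to 0.0876).

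The genes whose 6 changes lay closest to those of *Plet1* were *Aqp3*, *Capg* and *Ckmt1*, with a root mean square difference of 0.102, 0.122 and 0.145 on the log2 scale over 4 PGK12.1 and 2 WD44 experiments. *Aqp3*, an aquaporin gene, gave -0.67, -0.61, -0.53 and -0.64 in PGK12.1 and -0.13 and 0.01 in WD44. The closest to *Ascl2* were *Psd4*, *Zfp317* and *Ephb3*, at 0.0709, 0.0815 and 0.0844. *Psd4* gave -0.44, -0.44, -0.27 and -0.17 in PGK12.1 experiments 1 to 4, and *Ephb3*, an ephrin receptor gene, -0.41, -0.4, -0.19 and -0.25. These genes were picked for likeness, so their values describe the pattern only.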

How the data were processed

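The authors analysed the arrays with Affymetrix Expression Console and normalized them by RMA, which the methods place in a Bioconductor package. Software versions, and whether all arrays were normalized as 1 set, were not given in the sources used here. The deposited log2 values, given to 2 decimals, were used without further normalization. The annotation gave 1 symbol for 21789 of 35556 probe sets, several for 1621 (not named) and none for 12146. Probe sets of a gene were averaged (999 genes), which gave 19938 genes, of which 19919 symbols were in the RefSeq table of GRCm38.p6. Genes with a mean linear value of at least 0.1 times the array mean were tested: 15309 passed and 4629 did not.

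The test was limma 3.58.1 in R 4.3.3 over all 12 arrays, with experiment as a block, 1 effect per line, and Benjamini-Hochberg adjustment at 0.05 (residual and prior degrees of freedom 4 and 5.66, or 3 and 5.48 for double minus single RNAi). Since WD44 has 2 experiments, its p-values lean on the PGK12.1 spread. The pairing comes from the experiment numbers of the labels and the paired tests of the methods. As a check, the control and RNAi arrays of an experiment deviated together from their group means: r was 0.828, 0.846, 0.915 and 0.972 for PGK12.1, array scales included, and 0.265 for WD44, by construction alike for both experiments. Scripts were tested on simulated data. Figures used matplotlib 3.10.9 in Python 3.11.15. The number of arrays limits the precision.

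Members and gene lists were chosen with earlier results of these data known. Named genes were all members, *Kdm6a*, up to 4 called genes (otherwise up to 2) of each list, the genes of most similar pattern to *Ascl2* and *Plet1*, and neighbours with a value. Genes of a list that were under the minimum level were named after their values were seen. Alternatives were other minimum levels, quantile normalization, no block, trend and robust moderation, single probe sets, single RNAi alone, the methods' paired t-test and leaving out each experiment.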

Additional observations from a re-analysis of the deposited data

Results flagged for a closer look

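Among the PGK12.1 controls, experiment 4 stood far from the other 3 in percentile rank for 3 members. The gap to the nearest control, as a share of the range of the 4, was 0.837 for *Plet1* (experiment 4 high, at 75.2), 0.928 for *Cdx2* (low, at 25.7) and 0.859 for *Hand1* (low, at 48.0). Each gap passed Dixon's 95% limit for 4 values, and chance exceeds it in about 1 of 20 of the groups looked at, of which there were 22. As a multiple of the array mean, *Plet1* was also highest in experiment 4, at 1.03. *Hand1* was then highest in experiment 4 (0.295), not lowest, and *Cdx2* lay close in experiments 3 and 4 (0.135 and 0.131). The flags of *Hand1* and *Cdx2* thus hold for ranks alone.

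*Krt18* was lower in all 4 PGK12.1 experiments and higher in both WD44 experiments. The means of the lines differed by -0.38 on the log2 scale (PGK12.1 minus WD44), a difference that was not tested.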

How the results depend on the processing

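Of 372 values under alternative settings, 356 stayed on their side of the threshold without turning sign, within 1 SD of the value reported (PGK12.1 means, which had no test), or, for a count, near the count reported. Many of these values could not move, so the share does not measure robustness. Each member has 1 probe set, and the mean WD44 changes do not depend on the PGK12.1 arrays, the minimum level or the moderation. Members called in WD44 and for double minus single RNAi were 0 in every setting run, where 0% of all genes passed as reported. The number of other trophoblast genes called in PGK12.1, 3 as reported, was 1 with no minimum level, 10 (6 lower, 4 higher) with a minimum of 0.25, 12 with trend and robust moderation, 1 with single RNAi alone and 0 with the methods' paired t-test. Without the replicate block, that is without pairing, it was 0, and the calls of all 11 named genes of the lists were lost (adjusted p = 1), as they were with the paired t-test. With single RNAi alone *Phlda2*, *Cldn6*, *Sparc* and *Lef1* were called, whereas the calls of the other 7 ended, among them *Cdkn1c* (adjusted p = 0.112), *Notum* (0.0715) and *Cldn4* (0.134). Leaving out 1 experiment at a time gave 1 to 4 other trophoblast genes called in PGK12.1. *Phlda2* was called in each setting run other than the paired t-test and the fit without the block. In WD44 the sign turned for *Tfap2c*, to 0.01 under quantile normalization and within -0.07 to 0.01 when an experiment was left out, and for *Cdx2*, within -0.01 to 0.06. For double minus single RNAi it turned for *Krt8* (-0.01 to 0.31) and *Krt18* (-0.08 to 0.05) when an experiment was left out. Within 1 SD, the PGK12.1 mean also turned sign for *Cdx2* (-0.07 to 0.07), *Elf5* (-0.2 to 0.08), *Hand1* (-0.15 to 0.04) and *Gata3* (-0.08 to 0.09) with an experiment left out or single RNAi alone. The causes were not tested.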
